A study of Mus musculus with 2 samples.

Results

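Monocytes that carry no transcript of Cxcl9, a chemokine gene switched on by interferon gamma, were taken from the single-cell RNA sequencing of immune cells in B16-F0 melanoma, a transplantable mouse tumour line. The series holds 2 libraries, 1 from tumours of WT mice and 1 from tumours of KO mice, prepared from live cells sorted as CD45-positive and DAPI-negative and run on droplet-based 3′ chemistry from 10x Genomics. The labels give neither the knocked-out gene nor the strain, age, treatment, day of collection or number of animals, and they name the cell type of both samples as TIL-Treg although the sort took every live CD45-positive cell. With 1 library per genotype there is no replicate, so no test was made: every interval below is a 95% interval that covers counting error only, and a difference between genotypes cannot be told apart from a difference between these 2 libraries.

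The cells were chosen by the measured values of a few genes. A cell had to have at least 1000 UMIs (unique molecular identifiers, each standing for 1 captured transcript), at least 500 genes and at most 10% mitochondrial UMIs. It had to show at least 5 UMIs of Ly6c2, Ccr2 and Vcan together per 10000 UMIs and at least 3 of Lyz2. It had to stay under 10 per 10000 both for the complement genes C1qa, C1qb and C1qc and for the macrophage genes Mmp12, Arg1, Spp1, Inhba and Thbs1, and to have 0 UMIs of Cxcl9. T, B, NK and dendritic cells were kept out by Cd3d and Cd3e, Cd79a, Ncr1, Cd209a, and Xcr1 and Clec9a. These limits left 351 of 11153 cells in the WT library and 517 of 11131 in the KO library, 868 of 22284 in all.

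Ly6C-high monocytes leave the bone marrow through the chemokine receptor Ccr2, travel in the blood and enter inflamed tissue and tumours, where they can become macrophages or dendritic-like cells. A smaller set, the non-classical or patrolling monocytes, loses Ly6C and depends on the factor Nr4a1. Monocytes respond strongly to interferons: type I interferons induce antiviral genes such as the Ifit and Oas families through the factor complex ISGF3, and interferon gamma from T and NK cells induces guanylate-binding proteins, MHC molecules and the chemokines Cxcl9 and Cxcl10.

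Several markers that the selection did not use fitted the monocyte name. Plac8, a gene high in Ly6C-high monocytes, had a UMI in 96.9% of the cells of both libraries, and its level was 3309 CPM in WT and 3156 CPM in KO (CPM, UMIs of the gene relative to all UMIs summed over the cells). In the C1q macrophages, gated alike from the same libraries, Plac8 stood at 785 and 878 CPM. Plac8 is no monocyte marker on its own, since 21.8% and 26.9% of T cells had a UMI of it after each cell was thinned to 2000 UMIs, against 91.7% and 92.2% of the monocytes. The secreted chitinase-like protein gene Chil3 gave 1747 and 1694 CPM here against 213 and 281 in C1q macrophages, and the haptoglobin gene Hp 481 and 341 against 28.4 and 27.0. Chil3 had a UMI in 60.6% and 55.3% of thinned monocytes and in under 1% of thinned T cells (0.61% and 0.55%), so here the marker is far from the T-cell background. The coagulation factor gene F13a1 was at 459 and 452 CPM, the fibronectin gene Fn1 at 660 and 786, and the membrane gene Ms4a4c at 627 and 853. F13a1 hardly set the monocytes apart from C1q macrophages. It had a UMI in 47.1% and 43.7% of thinned monocytes and in 41.4% and 39.4% of thinned C1q macrophages.

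Genes that define other cells were low. Of 11 T-cell, 9 B-cell and 9 NK-cell genes, only 3, 3 and 6 had 50 UMIs or more over both libraries; the T-cell receptor gene Trac was at 1.10 and 4.35 CPM and the B-cell gene Ms4a1 at 0.823 and 0. None of 5 mast and basophil genes reached 50 UMIs, and of 6 melanoma genes only Mitf did, at 12.1 and 15.1 CPM; Mitf is also active in myeloid cells. The macrophage genes Mrc1 at 85.6 and 114 CPM and Mertk at 1.10 and 0.621 CPM were well under their C1q-macrophage levels of 815 and 589, and of 18.4 and 17.8. Apoe, in contrast, reached 999 and 1047 CPM. The neutrophil genes are taken up below, since they differed between the libraries.

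**Figure D1:**
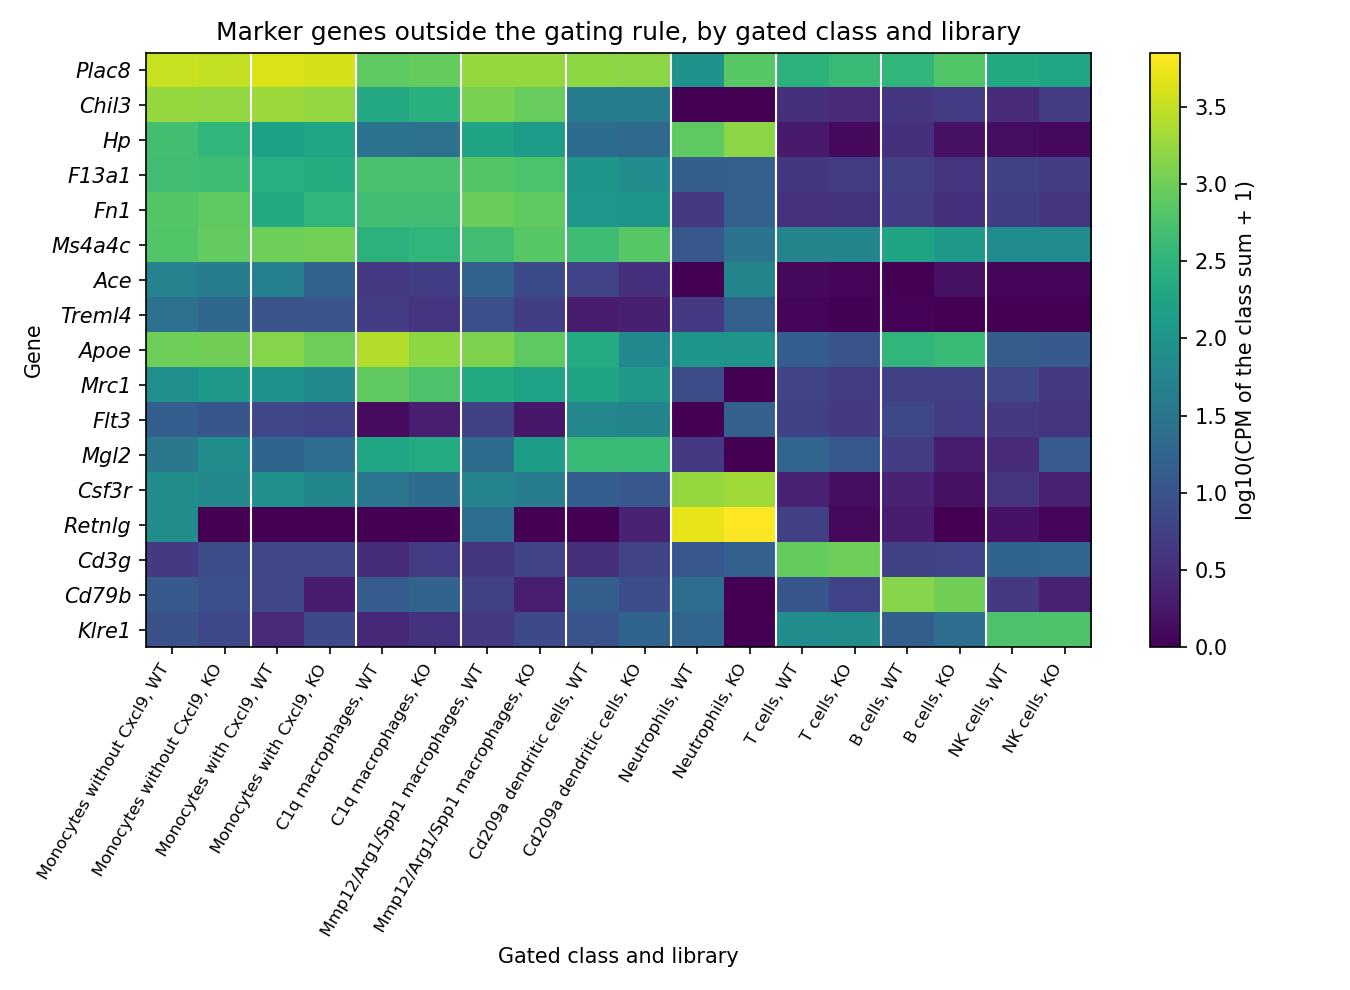
Colour gives log10(CPM + 1) of the UMIs summed over each gated class, with genes in rows and the 9 classes of the 2 libraries in columns. Plac8, Chil3, Hp and F13a1 are bright in both columns of monocytes without Cxcl9, while Cd3g, Cd79b and Klre1 are dark there.

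The monocytes supplied 3644317 UMIs in WT and 4828012 in KO, with medians of 9751 and 8679 UMIs and 2667 and 2449 genes per cell. Mitochondrial UMIs had medians of 2.71% and 2.62%. The whole libraries held 98438084 and 112544655 UMIs over 11432 and 11398 barcodes. The libraries had 41 barcodes in common among kept cells, none of them a monocyte of this kind in both. The libraries differed most in B cells, of which the same kind of gating found 3404 in WT and 412 in KO, and in neutrophils, with 87 and 21.

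Monocytes without Cxcl9 made up 3.15% of WT cells [2.83, 3.49] and 4.64% of KO cells [4.26, 5.05], a log2 ratio of 0.56 [0.36, 0.76]. That difference was not seen over other denominators. Among cells with fewer than 2 Cd79a UMIs, which leaves out most B cells, the shares were 4.92% and 4.85%, a log2 ratio of -0.02 [-0.22, 0.18]. Among all gated monocytes and macrophages they were 42.5% and 39.6%, a log2 ratio of -0.10 [-0.30, 0.10].

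Within the gated monocytes, the part lacking Cxcl9 was smaller in the KO library. It was 351 of 406 cells in WT, 86.5% [82.7, 89.6], and 517 of 730 in KO, 70.8% [67.4, 74.1]; as Cxcl9 is in the rule, this is a description. The cells left out for Cxcl9 were mostly not borderline: only 13 of 55 in WT and 31 of 213 in KO had exactly 1 Cxcl9 UMI, and the highest had 135 and 184. In T cells, which should lack Cxcl9, 0.820% and 2.39% had a UMI of it. At an equal depth of 2000 UMIs the share of monocytes with Cxcl9 was 9.68% [6.97, 12.99] in WT and 22.5% [19.5, 25.7] in KO, against 0.275% and 0.965% of T cells, so the order was the same at equal depth.

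Non-classical genes and MHC class II genes varied among the monocytes within each library. Ace, Treml4, Cd300e, Eno3, Spn and Adgre4, of which Ace encodes angiotensin-converting enzyme, mark non-classical monocytes. Cells with at least 3 UMIs over these 6 genes numbered 72 of 351 in WT, 20.5% [16.4, 25.1], and 76 of 517 in KO, 14.7% [11.8, 18.1]; a further 6.55% and 5.61% had exactly 2 UMIs, so the line cuts a range. These cells had passed the Ly6c2, Ccr2 and Vcan minimum, and cells poorer in those genes were not selected. The difference in share between the libraries lay within overlapping intervals.

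Cells marked in this way carried more of other non-classical genes that the split did not use, in both libraries. The patrolling receptor gene Cx3cr1 stood at 298 CPM in marked and 102 CPM in other WT monocytes, and at 298 and 84.9 CPM in KO. Nr4a1, the factor these cells depend on, was at 378 against 151 CPM in WT and 333 against 115 CPM in KO. The integrin gene Itgal was at 278 against 123 CPM and at 379 against 101 CPM, and the B-cell and monocyte factor gene Pou2f2 at 238 against 120 and 364 against 104. Classical genes did not move as a set. Fn1 was at 358 CPM in marked and 744 CPM in other WT cells, and at 565 and 823 CPM in KO; F13a1 was at 250 and 516 CPM in WT and at 373 and 465 CPM in KO. Plac8 was instead higher in marked cells, at 4214 against 3061 CPM in WT and 3776 against 3052 CPM in KO. Hp, at 490 against 479 and 405 against 330 CPM, and Chil3, at 1772 against 1741 and 1818 against 1673 CPM, were not lower in them either. Interferon genes were also lower in marked cells: Gbp2, a guanylate-binding protein, at 44.6 against 241 CPM in WT and 183 against 407 CPM in KO, and Ifit3 at 19.1 against 62.6 and 44.7 against 154. Il1b, the interleukin 1 beta gene, did not keep its direction, at 610 against 414 CPM in WT and 465 against 746 CPM in KO.

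MHC class II also ranged widely. The class II list of 14 genes had a median of 38.4 UMIs per 10000 in WT cells, with percentile 10 at 15.7 and percentile 90 at 279; in KO cells the median was 44.5 and these percentiles were 17.98 and 325. To describe what went with it, the 868 cells were divided into tertiles at 3.01 and 48.6 UMIs per 10000 of H2-Aa, H2-Ab1, H2-Eb1 and Cd74; 33 WT and 21 KO cells lay within 10% of a limit. The WT cells fell 38.2%, 30.5% and 31.3% into the lowest, middle and highest tertile and the KO cells 30.2%, 35.2% and 34.6%.

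Along this gradient several early monocyte genes were lower and several other genes higher in both libraries. In both, Plac8 was lowest in the highest tertile, without a steady fall in KO. Fn1 was highest in the lowest tertile and lowest in the middle one in both. Apoe ran in opposite directions in the libraries. Hp went from 855 CPM in the lowest tertile through 471 to 110 in WT and from 703 through 361 to 67.4 in KO. Chil3 went from 2423 through 2060 to 764 in WT and from 3137 through 1711 to 655 in KO. Mgst1, a microsomal glutathione transferase, went from 444 to 49.6 CPM in WT and from 409 to 41.3 in KO, and Klf2, a quiescence factor, from 450 to 163 and from 445 to 215. Ly6c2, a rule gene, had 1374, 989 and 671 CPM over the WT tertiles and 1536, 1187 and 1025 over the KO tertiles. In the opposite direction, Ciita, the master activator of MHC class II, went from 13.6 to 177 CPM in WT and from 14.0 to 176 in KO. Mrc1, the mannose receptor, went from 15.1 to 204 CPM in WT and from 14.0 to 224 in KO, and the lactate dehydrogenase gene Ldha from 327 to 674 and from 375 to 835. Apoe went from 793 through 979 to 1229 CPM in WT but from 1178 through 1117 to 896 CPM in KO. Plac8 had 3647, 3590 and 2700 CPM in WT and 3369, 3688 and 2572 CPM in KO, and Fn1 1024, 464 and 475 CPM in WT and 1135, 573 and 711 CPM in KO. The dendritic-cell receptor gene Flt3 stayed between 7.32 and 18.1 CPM in all 6 sets.

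Both the cells just inside and those just outside the limits carried Plac8. With 5 to 7.5 UMIs per 10000 of Ly6c2, Ccr2 and Vcan there were 19 WT and 26 KO cells just inside, and with 2.5 to 5 there were 13 and 30 just outside; Plac8 was at 2748 and 2646 CPM inside and 2258 and 3008 CPM outside. At the upper limit on Mmp12, Arg1, Spp1, Inhba and Thbs1, 38 WT and 41 KO cells lay between 5 and 10 per 10000 and 39 and 59 cells between 10 and 20, with Plac8 at 2439 and 2813 CPM inside and 2508 and 2040 outside. At the Ly6c2, Ccr2 and Vcan limit Hp was at 348 and 115 CPM inside and 101 and 162 outside. At the C1q limit the numbers of cells were 10 and 17 inside and 11 and 18 outside. Plac8 was higher outside it in both libraries, at 2036 and 1567 CPM inside and 3022 and 2230 outside. Chil3 was lower outside it, at 874 and 933 CPM inside and 673 and 465 outside. At the limit on Mmp12, Arg1, Spp1, Inhba and Thbs1, Chil3 was instead higher outside, at 1865 and 812 CPM inside and 2064 and 1229 outside.

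Between the libraries, interferon response genes were higher in KO monocytes. Most of the measured antiviral genes, guanylate-binding proteins, immunity-related GTPases and DNA-sensing PYHIN genes passed the size rule, as did Cxcl10 and Cd274, while of the classical monocyte genes only Ly6a did. Interleukin 1 beta, its antagonist and glucose transport were higher too. Neutrophil and red-cell RNA, chemokines for neutrophils and a small set including Apoc2, Arl11 and Ctse were lower in KO.

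A gene was counted as higher or lower where the CPM differed at least 1.5-fold between the libraries and the interval of the ratio excluded 1. Of 8089 genes with 50 UMIs or more over both libraries, 254 were higher in KO, 3.14%, and 309 were lower, 3.82%; with ratios scaled to a median of 0 the split was 305 and 238. The median log2 ratio of all 8089 genes was -0.04. With every cell thinned to 2000 UMIs and the selection made again, which took 438 WT and 662 KO cells, 166 genes were higher and 145 lower, and with no minimum beyond 1 UMI 493 were lower.

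Of the 21 antiviral genes listed as type I interferon responses, 20 were measured; 14 were higher in KO and none lower, with a median log2 ratio of 0.74. Ifit3, whose protein helps to hold back translation of viral RNA, lies at chr19:34583531-34588731 on the plus strand (GRCm38, as for all positions here) and was at 53.2 CPM in WT and 139 in KO, a log2 ratio of 1.38 [1.15, 1.62]. It had a UMI in 14.5% of WT and 23.8% of KO cells. Rsad2 (chr12:26442746-26456452, minus strand), which encodes viperin, was at 63.7 and 182 CPM, a log2 ratio of 1.52 [1.31, 1.73], although 26.3% of its WT UMIs came from 1 cell. Ifit2 went from 40.3 to 108 CPM and Ifit1 from 51.0 to 103. The mitochondrial nucleotide kinase gene Cmpk2 went from 15.9 to 39.1 CPM, the deubiquitinase gene Usp18 from 30.2 to 57.6, and the RNA-sensing synthetase gene Oas3 from 49.9 to 88.0. Irf7, the factor that amplifies type I interferon, differed less, with 157 and 257 CPM, a log2 ratio of 0.71 [0.57, 0.85]. Isg15, an abundant ubiquitin-like gene of the same response, was at 317 and 437 CPM and did not reach 1.5-fold.

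Some members of the family were nearly absent from the WT monocytes. Ifi44 (chr3:151730922-151749960, minus strand) had 3 UMIs in WT and 414 in KO, a log2 ratio of 6.70 [5.15, 8.99]; it was detected in 0.855% of WT and 25.5% of KO cells. Its neighbour in name, Ifi44l, had 0 and 116 UMIs, at least 29.2-fold higher in KO against a floor of 3 UMIs. Gbp2b (chr3:142594847-142619179, plus strand), a guanylate-binding protein also known as Gbp1, had 2 and 353 UMIs. Ifit1bl1 had 6 and 98. Gbp2b and Ifit1bl1 have near-identical relatives, so their levels are uncertain. Ifi44 was also higher in other classes, with log2 ratios of 3.52 in monocytes with Cxcl9, 3.10 in C1q macrophages and 1.95 in T cells, and Gbp2b with 5.03, 2.65 and 3.40. Tpm3-rs7, a near copy of the tropomyosin gene Tpm3 and no interferon gene, had 27 and 179 UMIs, a log2 ratio of 2.32 [1.73, 2.96]. Its log2 ratio was 1.52 in C1q macrophages, 2.05 in T cells and 2.35 in Cd209a dendritic cells. The labels give no strain. For genes that differed alike in many classes, the knockout and a difference in genetic background between the mice therefore cannot be told apart. Ifi44, Ifi44l, Gbp2b and Tpm3-rs7 are among these genes, as are Ctse and Arl11 below. Ifit1bl1 is not, as its share of cells with a UMI differed little between the libraries in T cells and C1q macrophages.

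Of 21 interferon gamma response genes, 15 were higher in KO and none lower, with a median log2 ratio of 0.73; in cells thinned to 2000 UMIs 7 were higher. Cxcl10 (chr5:92346638-92348889, minus strand), the chemokine that draws T cells through Cxcr3, was at 494 and 1037 CPM, a log2 ratio of 1.07 [0.99, 1.15], with a UMI in 41.3% of WT and 56.1% of KO cells. Gbp2 (chr3:142620602-142638008, plus strand) was at 199 and 374 CPM and detected in 31.3% and 50.5% of cells. Gbp4 went from 27.7 to 59.0 CPM and Gbp5 from 41.4 to 67.3. The guanylate-binding proteins and the related GTPases attack the vacuoles of intracellular microbes. Iigp1, a GTPase of that group, showed a larger log2 ratio of 2.21 [1.69, 2.77], from 9.60 to 44.3 CPM. Tgtp2 went from 7.41 to 25.1 CPM and Irgm1 from 76.0 to 150. Irf1, a factor induced early in the response, was at 177 and 266 CPM and was counted as higher. Socs1, which shuts off the pathway, went from 48.3 to 79.5 CPM. The receptor gene Ifngr1 was the exception, at 349 and 262 CPM, a log2 ratio of -0.42 [-0.53, -0.30], which did not reach 1.5-fold.

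Promoters of these genes are shown because members of both lists moved together. The letters searched were GAAANNGAAA, the core of the interferon-stimulated response element (ISRE) bound by ISGF3 and interferon regulatory factors, and TTCNNNGAA, the gamma-activated site (GAS) of interferon gamma targets, on both strands from 250 bases before to 50 after each RefSeq start of the build GRCm38.p6; the 2 motifs were searched separately and may overlap. Over all 27025 genes with a promoter in that table, 3.99% had the ISRE letters and 9.55% the GAS letters; among the 6542 measured genes in the table the shares were 4.39% and 8.06%. The type I list had 17 of 20 measured genes in the table, and 9 of these, 52.9%, held an ISRE match and 3, 17.6%, a GAS match. The interferon gamma list had 16 of 21, with an ISRE match in 10, 62.5%, and a GAS match in 7, 43.8%. Among members higher in KO, 5 of 12 type I genes (41.7%) and 9 of 11 interferon gamma genes (81.8%) held an ISRE match. Ifi44 held neither motif. These are letter matches and no evidence of binding, and whether a match goes with the difference between the libraries was not tested. The 5 genes printed below all hold an ISRE match. Starts are those of RefSeq, whereas the gene spans given above come from another annotation. For Gbp2 that span begins before the RefSeq start, so the end of the stretch printed below, with its ISRE match, lies inside the span. The 250 bases upstream of 5 genes follow, read 5′ to 3′ on the strand of the gene with matches in capitals: Ifit3 at chr19:34583279-34583528 (plus strand, ISRE 156 and 122 bases before the start), Rsad2 at chr12:26456453-26456702 (minus, ISRE at 120), Cxcl10 at chr5:92348890-92349139 (minus, ISRE at 213), Gbp2 at chr3:142620413-142620662 (plus, ISRE at 59) and Gbp5 at chr3:142496684-142496933 (plus, ISRE at 165 and GAS at 245 and 52).
Ifit3: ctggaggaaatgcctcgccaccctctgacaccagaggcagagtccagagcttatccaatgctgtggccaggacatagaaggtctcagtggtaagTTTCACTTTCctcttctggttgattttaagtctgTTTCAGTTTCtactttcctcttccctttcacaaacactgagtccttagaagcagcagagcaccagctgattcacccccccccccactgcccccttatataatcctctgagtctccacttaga
Rsad2: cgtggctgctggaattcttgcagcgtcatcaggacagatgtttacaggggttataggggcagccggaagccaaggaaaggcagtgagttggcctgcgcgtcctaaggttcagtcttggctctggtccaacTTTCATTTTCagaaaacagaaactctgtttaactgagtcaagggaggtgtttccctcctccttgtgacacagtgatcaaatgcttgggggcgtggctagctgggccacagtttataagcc
Cxcl10: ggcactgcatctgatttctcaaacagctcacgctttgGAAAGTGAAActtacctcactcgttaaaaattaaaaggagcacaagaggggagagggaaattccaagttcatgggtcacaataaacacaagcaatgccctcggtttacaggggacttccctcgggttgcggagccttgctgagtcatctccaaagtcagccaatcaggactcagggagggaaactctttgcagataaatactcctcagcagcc
Gbp2: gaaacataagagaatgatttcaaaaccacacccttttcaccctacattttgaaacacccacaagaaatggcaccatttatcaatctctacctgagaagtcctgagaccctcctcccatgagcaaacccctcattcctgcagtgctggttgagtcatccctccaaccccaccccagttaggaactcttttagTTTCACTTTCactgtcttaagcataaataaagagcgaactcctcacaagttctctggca
Gbp5: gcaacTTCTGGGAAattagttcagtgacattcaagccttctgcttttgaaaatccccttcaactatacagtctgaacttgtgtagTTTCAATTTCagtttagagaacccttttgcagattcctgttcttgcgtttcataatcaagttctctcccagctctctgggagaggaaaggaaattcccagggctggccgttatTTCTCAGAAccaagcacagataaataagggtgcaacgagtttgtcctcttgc

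The PYHIN genes, whose proteins sense DNA or act on transcription in the nucleus, are clustered on chromosome 1. Of 11 measured, 8 were higher in KO and none lower, with a median log2 ratio of 0.71. Ifi205 (chr1:174011998-174031810, minus strand) went from 88.9 to 212 CPM, a log2 ratio of 1.25 [1.07, 1.44], and from 27.6% to 50.7% of cells. Ifi204 went from 368 to 610 CPM, Ifi203 from 328 to 536 and Ifi213 from 51.6 to 102. Aim2, the cytosolic DNA sensor of the inflammasome, was not part of the shift, with a log2 ratio of -0.30, nor was Ifi208, with -0.59 and an interval that did not meet the rule. The PYHIN genes are near-identical in stretches, so the level of each is uncertain.

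Summed per cell, the KO values lay higher at the median and further apart at the top. Type I genes summed to a median of 5.72 UMIs per 10000 in WT cells and 9.76 in KO cells, and percentile 90 stood at 31.6 and 62.3. Interferon gamma response genes summed to 15.6 and 25.01 at the median, with percentile 90 at 56.5 and 84.3, and PYHIN genes to 13.7 and 22.8 at the median. The distributions overlapped throughout. The 15 classical monocyte genes served as a contrast, with medians of 102 and 107.

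**Figure D2:**
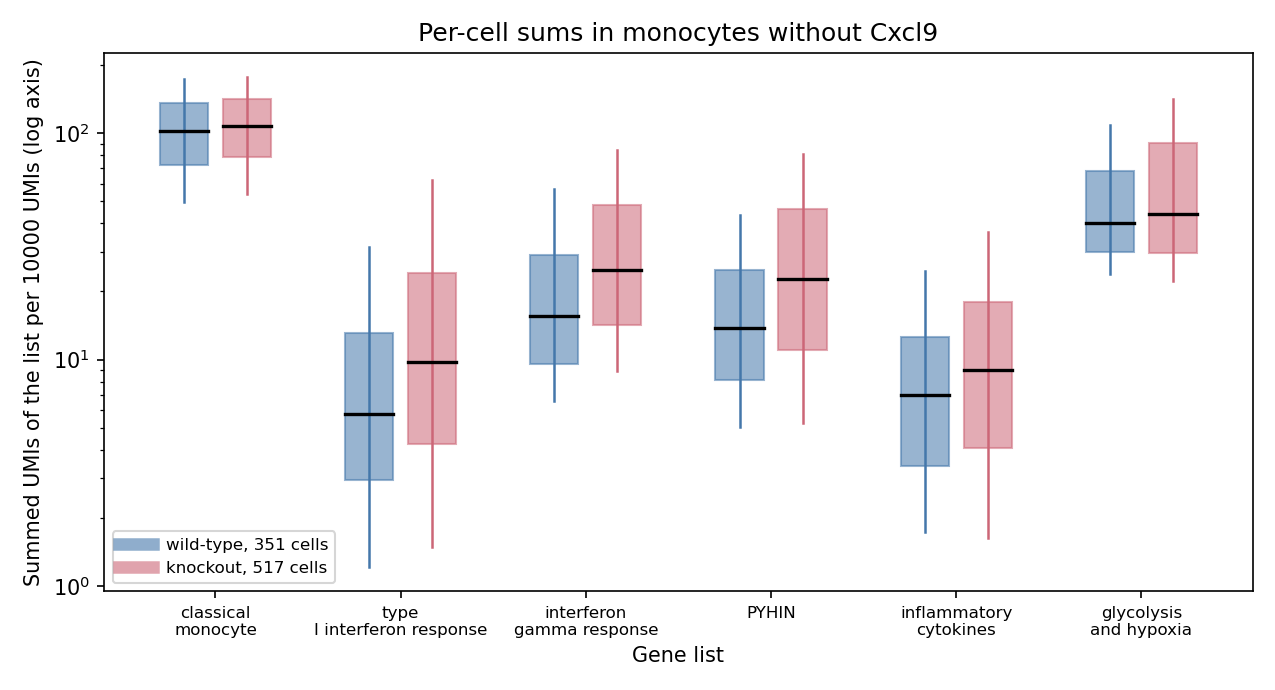
Boxes give the quartiles, black lines the medians and whiskers percentiles 10 to 90 over cells of the summed UMIs of a list per 10000 UMIs, on a log axis, for 351 WT and 517 KO monocytes. The type I box lies higher in KO, with medians of 5.72 and 9.76, while the classical monocyte boxes lie side by side at 102 and 107.

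The same lists were read in other gated cells of the libraries, and the difference between classes was not tested. The type I median log2 ratio was 0.74 here, 0.67 in macrophages rich in Mmp12, Arg1 and Spp1 (13 of 20 genes higher) and 0.92 in Cd209a dendritic cells (16 of 20 higher). It was 0.09 in monocytes with Cxcl9 (2 of 20 higher, from 55 WT cells only), -0.11 in C1q macrophages, 0.28 in T cells, 0.18 in NK cells and -0.03 in B cells. For scale, the 8089 genes tested here were also counted in each class where they had 20 UMIs or more. Higher were 257 of 7864 in Mmp12, Arg1 and Spp1 macrophages, 228 of 8033 in Cd209a dendritic cells and 245 of 7189 in monocytes with Cxcl9. For interferon gamma genes the medians were 0.73 here, 0.52 in monocytes with Cxcl9, 0.41 in C1q macrophages, 0.86 in Mmp12, Arg1 and Spp1 macrophages, 1.06 in Cd209a dendritic cells, 0.32 in T cells, 0.40 in NK cells and 1.10 in B cells. Ifit3 had log2 ratios of 1.38 here, 0.11 in monocytes with Cxcl9, -0.22 in C1q macrophages and 1.94 in Cd209a dendritic cells.

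**Figure D3:**
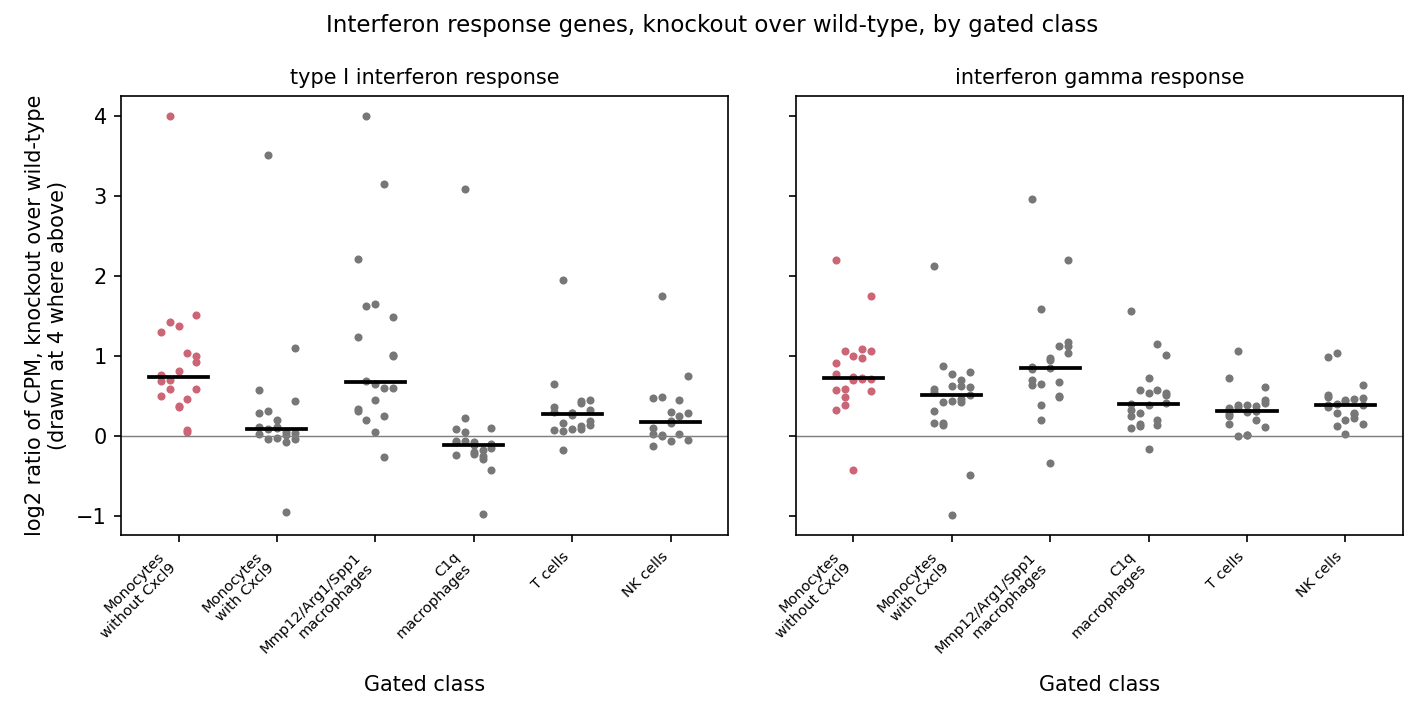
Each point is a gene of the type I or interferon gamma list, placed by its log2 ratio of KO over WT CPM within a gated class, and the black bar is the median of the list. The type I medians stand at 0.74 in monocytes without Cxcl9 and 0.09 in monocytes with Cxcl9.

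Inflammatory cytokine genes were higher in part. Of 13 measured, 5 were higher in KO and none lower, with a median log2 ratio of 0.41. Il1b (chr2:129364570-129371139, minus strand), the pyrogenic cytokine of inflammasome-competent cells, was at 456 and 705 CPM, a log2 ratio of 0.63 [0.54, 0.71], yet in 61.3% of WT and 59.8% of KO cells. It sat just past 1.5-fold and was under it, at 0.51, without cells of high doublet score, at 0.36 in thinned cells and at 0.42 with every cell given equal weight. Il1rn, the antagonist of interleukin 1, went from 73.0 to 119 CPM, and Ptgs2, the inducible cyclooxygenase, from 76.3 to 121. Il15, a survival factor for NK cells and memory T cells, went from 14.0 to 31.9 CPM, and Il18bp, which neutralises interleukin 18, from 9.33 to 16.4. Tnf, at a log2 ratio of 0.13, and the inflammasome gene Nlrp3, at 0.22, were not among them.

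Among 16 molecules that restrain or shape immune responses, 2 were higher and none lower, with a median of 0.17. Cd274 (chr19:29367455-29388095, plus strand), which encodes PD-L1, was at 35.7 CPM in WT and 75.6 in KO, a log2 ratio of 1.08 [0.79, 1.38], with a UMI in 17.7% and 29.8% of cells. Acod1, the itaconate enzyme, was at 20.9 and 32.5 CPM and lost its call in 5 of 13 alternative analyses. The checkpoint receptor gene Havcr2 had a log2 ratio of 0.01 and the adenosine enzyme gene Entpd1 0.31.

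Chemokine genes differed in both directions. Of 15 measured, 3 were higher in KO and 4 lower, with a median of 0.15. Besides Cxcl10, the higher ones were Ccl12, a Ccr2 ligand, from 67.5 to 115 CPM, and Cxcl16, the Cxcr6 ligand, at a log2 ratio of 0.66. The lower ones included Cxcl1, Cxcl2 and Cxcl3, which draw neutrophils through Cxcr2. Cxcl3 was at 31.8 and 2.90 CPM and Cxcl1 at 30.5 and 8.29 CPM, each in few cells of the WT library (3.42% and 5.13%). Cxcl2 (chr5:90903871-90905938, plus strand) was found in many more cells, at 1421 and 945 CPM in 57.8% and 44.3% of them, a log2 ratio of -0.59 [-0.65, -0.53]; its ratio lay between -0.45 and -0.58, short of 1.5-fold, in 6 alternative analyses. Ccl24, an eosinophil chemokine, was at 79.6 and 40.4 CPM. The Ccr2 ligand genes Ccl2 and Ccl7, at log2 ratios of 0.18 and 0.27, and the macrophage inflammatory protein genes Ccl3 and Ccl4, at -0.32 and -0.23, did not pass the rule.

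Of 18 receptors and adhesion molecules none was higher and 1 was lower, with a median of 0.01. The lower one was C5ar1, the receptor of the complement fragment C5a, at 71.1 and 46.6 CPM, a log2 ratio of -0.61 [-0.87, -0.35]; its ratio was between -0.55 and -0.58, short of 1.5-fold, in 3 of 13 alternatives. Cx3cr1 had a log2 ratio of -0.32, Csf1r, the receptor of the macrophage growth factor, 0.08, and the integrin genes Itgam and Itgb2 -0.06 and 0.00.

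Identity genes differed little. Of 15 classical monocyte genes only Ly6a was higher, at 145 and 285 CPM, a log2 ratio of 0.98 [0.83, 1.13]; Ly6a, which encodes Sca-1, is itself inducible by interferon. The list median was -0.02, and Hp, at -0.50, was the lowest and not past 1.5-fold. Of 13 non-classical genes only Ear2 passed, at 56.3 and 84.5 CPM, and it lost its call in 8 of 13 alternatives. The list ran the other way, with a median of -0.30 and 2 of 13 ratios above 0. Its summed log2 ratio was -0.17 [-0.23, -0.10]. Of 16 transcription factors of the lineage only Irf4 passed, at 9.33 and 15.3 CPM, with a list median of 0.17.

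Few antigen presentation genes passed the size rule. MHC class II genes had a median log2 ratio of 0.33 with 1 of 12 higher, H2-DMb2, a peptide-loading chaperone, at 11.5 and 24.4 CPM, while the invariant chain gene Cd74 had 3459 and 4306 CPM. MHC class I genes had a median of 0.29 with 1 of 16 higher, Nlrc5, their transactivator, at a log2 ratio of 0.61, and at 0.58 without cells of high doublet score. H2-DMb2, at 0.84 in thinned cells, lost its call there. No class I or class II gene was lower by the rule, and 12 of 12 class II and 15 of 16 class I ratios were above 0.

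Metabolic and stress genes moved in small numbers. Of 19 glycolysis and hypoxia genes, 3 were higher and none lower, with a median of 0.39, and all 19 ratios were above 0. Slc2a1, the glucose transporter, was at 69.7 and 124 CPM, a log2 ratio of 0.83 [0.62, 1.05], in 35.0% and 48.7% of cells, and a log2 ratio of 0.46 in thinned cells, short of 1.5-fold; the hypoxia-induced mitophagy gene Bnip3 was at 63.7 and 111 CPM and the hexokinase gene Hk3 at 34.3 and 57.0. In sums per cell the list differed little at the median, 40.1 and 43.9 per 10000, and more at the third quartile, 68.0 and 90.9. Of 12 heat-shock genes 3 were higher, with a median of 0.27. Hspa1a, an inducible Hsp70 with the near copy Hspa1b, was at 174 and 443 CPM, a log2 ratio of 1.35 [1.22, 1.48], and at 0.57, short of 1.5-fold, in thinned cells, while 88.0% of the KO UMIs of Hspb1 came from 1 cell. Of 13 proliferation genes 3 were higher, with a median of 0.27, and a UMI of Mki67 or Top2a was present in 7.12% of WT and 7.54% of KO cells. Oxidative burst and iron genes (median 0.00, 15 measured), lipid genes (0.12, 17 measured), early response genes (0.02, 16 measured) and pattern and Fc receptors (0.11, 17 measured) had no member past the rule in either direction.

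Several genes of tissue macrophages were lower. Of 12 macrophage genes, 4 were lower and 1, the tetraspanin gene Cd81, higher, with a median of -0.09. Ms4a7 was at 24.4 and 11.4 CPM, the lysosomal tetraspanin gene Cd63 at 51.0 and 24.2, the lipid receptor gene Trem2 at 71.3 and 43.7, and Gpnmb at 24.4 and 13.9. Apoe, at a log2 ratio of 0.07, was not among them. Trem2 was also lower in C1q macrophages, with a log2 ratio of -0.58, and in Mmp12, Arg1 and Spp1 macrophages, with -1.08. The macrophage list had lower medians in most other classes. They were -1.31 in Cd209a dendritic cells, -0.59 in T cells, -0.58 in Mmp12, Arg1 and Spp1 macrophages and -0.47 in C1q macrophages. In monocytes with Cxcl9 the median was -0.51, in NK cells -0.19 and in B cells 0.005. Of 17 lysosome genes only Ctse, the aspartic protease cathepsin E, was lower, at 35.4 and 17.8 CPM, a log2 ratio of -0.99 [-1.40, -0.59], with a list median of -0.05. Ctse was lower in T cells too, at -1.71, and in Cd209a dendritic cells, at -1.86.

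Beyond the lists, Apoc2, an apolipoprotein that activates lipoprotein lipase, was at 142 and 66.5 CPM, a log2 ratio of -1.10 [-1.30, -0.90], in 48.7% and 31.5% of cells. The small GTPase gene Arl11 was at 43.9 and 15.5 CPM, a log2 ratio of -1.50 [-1.91, -1.09], in 34.8% and 12.4% of cells. Hes1, a Notch target, was at 49.1 and 20.7 CPM, and the unnamed transcript AI506816 at 30.5 and 11.4, a log2 ratio of -1.42 that was -0.67 and no longer called in thinned cells. Arl11 was lower in other classes too, with -0.70 in Cd209a dendritic cells and -1.88 in T cells. Among the genes higher in KO, Prelid2, a lipid-transfer family member, went from 5.49 to 25.1 CPM. Retnla, of the resistin-like family, went from 1 to 216 UMIs, but 58.3% of the KO UMIs came from 1 cell, and of Lyz1, a near copy of Lyz2, 41.8% did. Mgl2, a lectin gene of some dendritic cells and macrophages, was at 32.1 and 76.2 CPM and the only one of 6 dendritic genes to pass (median 0.20).

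RNA of neutrophils and their precursors was lower in KO monocytes, and much of it sat in few cells. Of 8 neutrophil genes 7 were lower, with a median log2 ratio of -3.26; S100a8 had 2746 UMIs in WT and 171 in KO and S100a9 3736 and 448. The proteins of S100a8 and S100a9 form calprotectin. Of 17 S100 and acute-phase genes 7 were lower, with a median of -0.18, among them Lcn2, an iron-scavenging granule gene, at 257 and 21 UMIs and Saa3, serum amyloid A, at 163 and 17. All 4 granule genes measured were lower, with a median of -7.03: Ngp had 313 UMIs in WT and Camp 280, all in 1 cell, and both had 0 in KO, at least 138-fold and 124-fold lower against a floor of 3 UMIs. Ltf had 149 and 1, with 98.7% of the WT UMIs in 1 cell. Prtn3, proteinase 3, was spread over more cells, 21.4% of WT and 5.22% of KO, at 53.2 and 8.29 CPM. Ifitm1 was at 208 and 84.3 CPM with 34.8% of its WT UMIs in 1 cell, and in thinned cells its log2 ratio was 0.14.

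Cells with at least 50 UMIs of S100a8 and S100a9 per 10000 numbered 10 of 351 in WT and 1 of 517 in KO. Gated neutrophils numbered 87 and 21 in the libraries. The neutrophil list was also lower in KO in cells of other lineages, with medians of -2.09 in T cells, -3.84 in B cells and -3.10 in NK cells, over 8, 3 and 4 measured genes. In monocytes with Cxcl9 only 2 of its genes were measured, 1 of them lower. All 4 globin genes measured were lower, with a median of -7.51, and 1 WT cell held nearly all of their UMIs, for example 1221 of 1241 of Hbb-bs. The globin list was also lower in KO in most other classes, with medians of -7.99 in T cells, -6.66 in B cells and -8.22 in NK cells. In Mmp12, Arg1 and Spp1 macrophages 1 of 5 globin genes was lower, with a median of 0.16. Cells rich in lymphocyte, neutrophil or globin RNA, 21 in WT and 8 in KO, were left out as an alternative. There 1 neutrophil gene, S100a8, passed the rule as lower rather than 7, at a log2 ratio of -2.60. S100a9, at -3.81, and Mmp9, at -2.96, were not called. Some of these cells were left out on S100a8 and S100a9 themselves, so their ratios here cannot show whether the difference lies beyond those cells. In that setting 13 type I and 15 interferon gamma genes were higher. The other foreign lists had few measured genes: T-cell genes had a median of 0.00 over 3, B-cell genes -0.47 over 3 and the melanoma gene Mitf 0.32, none of them past the rule. Of 6 NK genes, with a median of -0.06, Gzmb was higher at a log2 ratio of 2.40, and at 0.87 without the cells just described. The part of these cells and of the neutrophil numbers in the result was not tested.

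**Figure D4:**
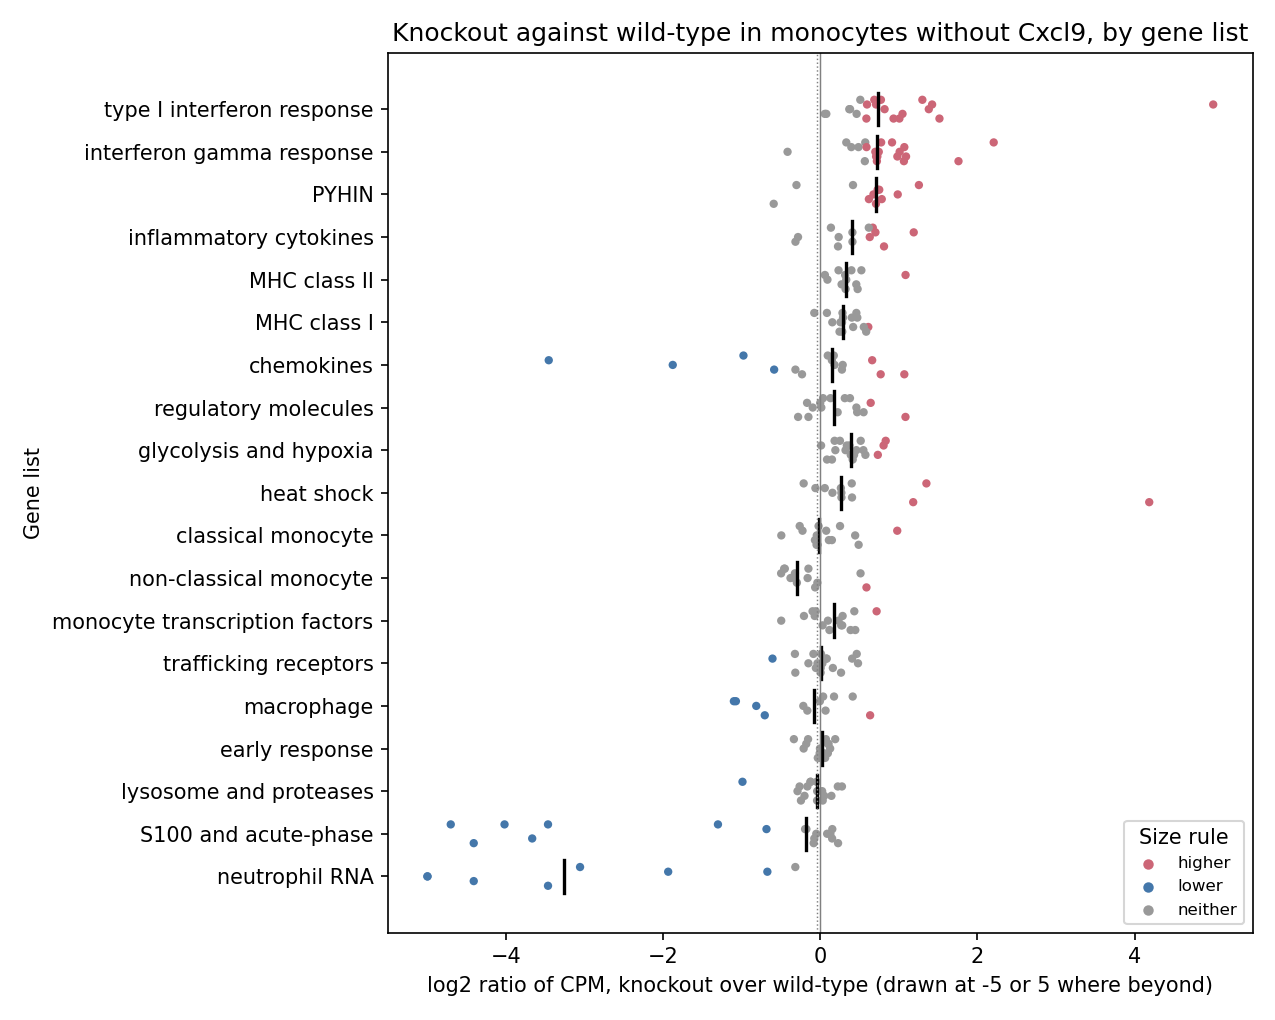
Each point is a measured gene of a list, placed by the log2 ratio of its CPM in KO over WT monocytes without Cxcl9 and coloured by whether it passed the 1.5-fold rule; black bars are list medians. The type I, interferon gamma and PYHIN lists lie right of 0, with medians of 0.74, 0.73 and 0.71, and the neutrophil list lies left, at -3.26.

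Monocytes without Cxcl9 had less of most interferon gamma genes than monocytes with Cxcl9, in both libraries. Part of the type I and MHC genes were also lower in both, and some classical and non-classical monocyte genes were higher. The 55 WT and 213 KO cells with Cxcl9 passed the same limits except for Cxcl9, and as the cells were split on a gene of the interferon gamma response, these values describe the split and were not tested. Of 5210 genes measured in both libraries, 181 were lower in both by the 1.5-fold rule, 3.47%, and 79 higher in both, 1.52%. Counting both libraries together was decided after values were seen. Genes with few UMIs in the 55 WT cells with Cxcl9 were not counted as measured. That limit leaves out genes nearly absent from those cells, which could otherwise be called higher in the cells without Cxcl9. The split of 181 and 79 may in part reflect it, which was not tested.

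Of 20 interferon gamma genes other than Cxcl9, 17 were lower in both libraries in the cells without it. Summed, the list had a log2 ratio of -1.27 [-1.33, -1.21] in WT and -1.17 [-1.20, -1.14] in KO. Gbp2 was at 199 CPM without and 964 CPM with Cxcl9 in WT, and at 374 and 1457 CPM in KO. Cxcl10 was at 494 and 1504 CPM in WT and at 1037 and 2772 CPM in KO. For both genes, the KO cells without Cxcl9 lay above the WT cells without it and below the WT cells with it. Cd274 was at 35.7 and 123 CPM in WT and 75.6 and 222 CPM in KO. Socs1 had log2 ratios of -1.59 and -1.66, Ly6a -1.82 and -1.50, and Fcgr4, an activating Fc receptor, -1.53 and -1.65. Of 19 type I genes 10 were lower in both, with medians of -1.29 in WT and -0.59 in KO. Of 16 MHC class I genes 7 were, of 10 class II genes 3 and of 11 PYHIN genes 4. Ifngr1 ran against its list, higher in the cells without Cxcl9 with log2 ratios of 0.62 and 1.19.

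Higher in the cells without Cxcl9 in both libraries were 4 of 15 classical and 3 of 7 non-classical genes, with 1 classical gene lower. These 7 are the non-classical genes measured in this comparison, against 13 measured between the libraries. Summed, the classical list was not higher, with log2 ratios of -0.12 [-0.16, -0.08] in WT and -0.09 [-0.11, -0.07] in KO. Fn1 was at 660 CPM without and 220 CPM with Cxcl9 in WT, and at 786 and 345 CPM in KO, log2 ratios of 1.58 and 1.19. Hp had log2 ratios of 1.64 and 0.84, F13a1 0.85 and 0.89 and Mgst1 1.27 and 0.65. Cx3cr1 had 1.05 and 1.85 and Nr4a1 0.66 and 1.26. Klf2 had 1.81 and 1.37 and the C/EBP factor gene Cebpd 1.57 and 0.77.

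**Figure D5:**
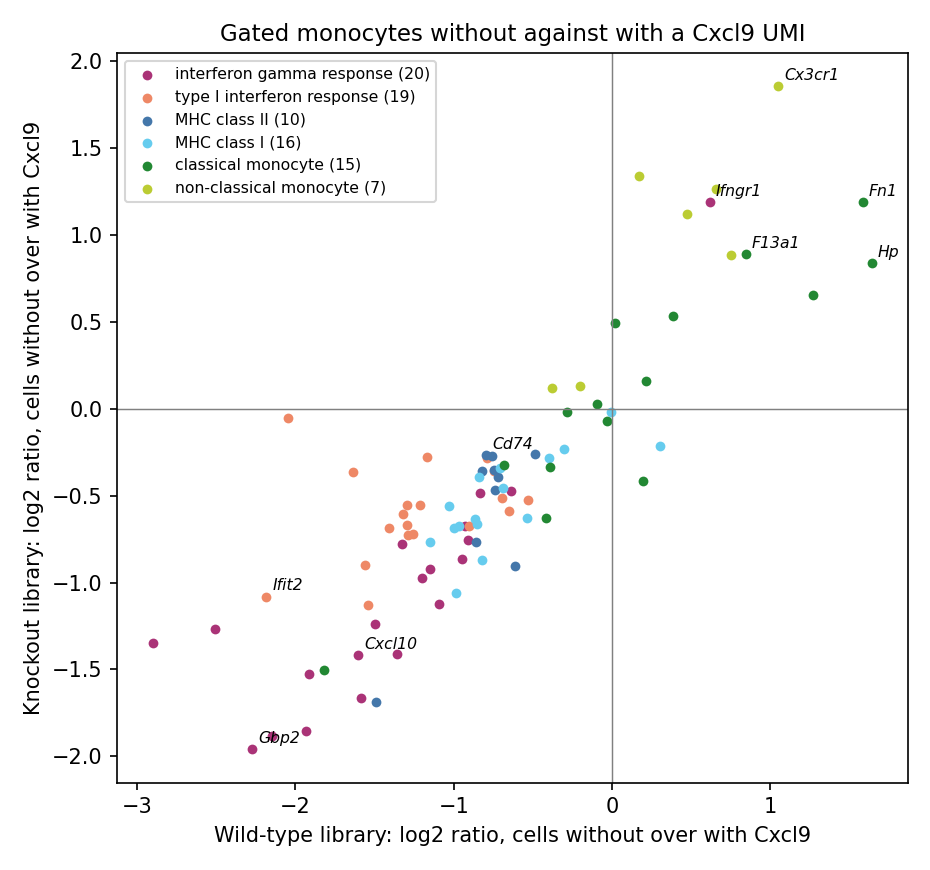
Each point is a gene, placed by its log2 ratio of cells without over cells with Cxcl9 in the WT library (horizontal) and in the KO library (vertical), with 6 lists in colour. Interferon gamma genes gather at lower left, Gbp2 at -2.28 and -1.96, and Fn1 lies at upper right, at 1.58 and 1.19.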

How the data were processed

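The authors deposited 10x count matrices, 1 per library, in which each value is a raw UMI count; per the file headers they were made with Cell Ranger 5.0.0, and the submitters' processing notes name Cell Ranger and STAR on mm10. The annotation release was not given in the sources used here. The members and gene lists were chosen with earlier results of these data known.

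Cells were gated on the deposited counts and UMIs were summed per class and library. CPM is relative to all UMIs of that sum. Ratios carry exact conditional binomial 95% intervals and shares Clopper-Pearson intervals; with 1 library per genotype there was no test. The size rule was applied to genes with 50 UMIs or more in the monocytes without Cxcl9. In the other gated classes it was applied to genes with 20 UMIs or more. The comparison of cells without and with Cxcl9 left out genes with few UMIs in the WT cells with Cxcl9. Genes at 0 in a library were set against a floor of 3 UMIs. Named genes were, in each direction, the first 12 by the interval bound nearest 0 with at least 20 CPM and at least 0.1 of the level in the highest class, plus up to 4 members of each of 31 lists (the 2 highest and the 2 with the largest ratio) and the markers; others named complete a pathway and were picked after their values were seen. The calling procedure was run on simulated sums with counting error only, the model that the intervals assume. That run cannot show how the calls behave with variation between cells or animals. No doublets were removed in the main analysis: Scrublet called 355 cells in WT and 0 in KO, so it did not work as a caller, and the 1020 and 1015 cells of highest score were left out as an alternative. Depth was 3644317 and 4828012 UMIs. Software was Python 3.11.15 with numpy 2.4.6, scipy 1.17.1, pandas 2.3.3, scanpy 1.11.5 and matplotlib 3.10.9. Promoters came from RefSeq tables of GRCm38.p6. A few genes of the lists are not reported here.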

Additional observations from a re-analysis of the deposited data

How the results depend on the processing

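Of 13 alternatives, 9 were set beforehand and 4 added after seeing the data. With 1 library per genotype, no interval or count shows how far another pair of mice would differ, and low genes are limited by depth. No paired analysis was possible because each genotype has 1 library. Thinning to 2000 UMIs and gating again, which changed the cells to 438 in WT and 662 in KO as well as the depth, left 166 genes higher and 145 lower, of which 73 and 43 were also among those of the full counts, and 7 interferon gamma genes higher; type I genes higher ranged from 12 to 14 over all alternatives. With no minimum beyond 1 UMI 493 genes were lower. Neutrophil genes lower numbered 4 with the monocyte minimum at 10 per 10000, 4 without the highest cell of each gene and 1 without cells rich in RNA of other lineages. In the last 2 settings S100a9 had log2 ratios of -9.52 and -3.81 and S100a8 of -7.08 and -2.60. The last setting left cells out on S100a8 and S100a9 themselves, and S100a9 was not called in it. The share of kept cells had a log2 ratio of 0.85 with no Cxcl9 condition. The log2 ratio of the summed interferon gamma genes, cells without over cells with Cxcl9, was -1.19 in WT without cells of high doublet score, -1.42 in WT and -1.50 in KO after thinning, -1.37 and -1.30 with 1 Cxcl9 UMI allowed, -1.08 and -1.07 with the monocyte minimum at 10, -1.23 in KO with macrophage limits of 5, and -1.08 in KO without non-classical-marked cells. Of 35 higher and 27 lower named genes, 16 and 18 kept their call in the thinned cells, where Stmn1 turned to -0.036 and Ifitm1 to 0.14; the cause was not tested. Thinned cells gave fewer genes to test, 4844 rather than 8089.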
